A study of Mus musculus with 6 samples.

Results

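The 10 genes described here encode the subunits of the transcription factor NF-κB, a set of its inhibitors and 1 linked kinase. They were taken by name from a table of 17438 genes measured by bulk RNA-seq in mouse lung group 2 innate lymphoid cells (ILC2s). The subunits are Nfkb1, Nfkb2, Rel, Rela and Relb, the inhibitors are Nfkbia, Nfkbid, Nfkbie and Tnfaip3, and the kinase gene is Map3k8. The genes were listed by name and not by a cut on measured values, though earlier results of these data were known. All 10 genes passed the filter on low counts.

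The study compared 3 wild-type (WT) libraries, from mice of the strain given as CB57BL/6, with 3 libraries from Cd48 knockout (KO) mice carrying B6.129S4-Cd48tm1Rsr/EpaulJ. CD48 is a surface receptor of the SLAM family on haematopoietic cells. All 6 libraries came from sorted lung ILC2s that were cultured and treated with IL-33, the alarmin that activates ILC2s, so no unstimulated level is available for comparison. The design text speaks of duplicates while 3 samples per genotype are used here. The labels do not say whether the samples came from separate animals or cultures, so p-values reflect the spread among these 6 samples and that spread may be technical.

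NF-κB acts as dimers of 5 related proteins. RelA (p65), c-Rel and RelB carry activation domains, while the Nfkb1 and Nfkb2 products are processed to p50 and p52, which bind DNA but lack one. In resting cells IκB proteins hold the dimers in the cytoplasm. The IL-33 receptor signals through MyD88 and IRAK kinases to the IκB kinase complex, which marks IκB proteins for degradation and lets the dimers enter the nucleus. Several inhibitor genes are themselves NF-κB targets and close negative feedback loops, so their transcripts are often read as signs of pathway activity.

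The κB consensus, a 10-base motif that NF-κB dimers bind, was searched on both strands in the 250 bases before each RefSeq transcription start (GRCm38.p6). Windows matched 7 of the 10 members by symbol, and none was given for Nfkb1, Relb and Map3k8. A match was present for 6 of those 7 members (85.7%), namely Nfkb2, Rel, Nfkbia, Nfkbid, Nfkbie and Tnfaip3. Rela had no match in its window. Among 9400 genes tested for expression that had a window, 983 (10.5%) held a match. Counted by window, 8 of the 12 member windows (66.7%) held a match, and several of those 8 belong to Nfkb2. A match was held by 1053 of 11977 windows of tested genes (8.79%) and by 2382 of all 32851 promoter windows (7.25%). A match describes letters in a window and is not a measured binding site. The 3 windows that follow belong to the members that held a match and whose WT and KO libraries did not overlap in level with all 6 libraries, read 5′ to 3′ on the gene's strand with the matches in capitals.
Nfkbia, chr12:55492648-55492897, minus strand: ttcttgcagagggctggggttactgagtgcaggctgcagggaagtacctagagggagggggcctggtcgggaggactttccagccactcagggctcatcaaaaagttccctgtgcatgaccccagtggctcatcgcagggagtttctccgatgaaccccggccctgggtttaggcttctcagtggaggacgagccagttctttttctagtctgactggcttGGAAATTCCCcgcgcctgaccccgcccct
Rel, chr11:23770970-23771219, minus strand: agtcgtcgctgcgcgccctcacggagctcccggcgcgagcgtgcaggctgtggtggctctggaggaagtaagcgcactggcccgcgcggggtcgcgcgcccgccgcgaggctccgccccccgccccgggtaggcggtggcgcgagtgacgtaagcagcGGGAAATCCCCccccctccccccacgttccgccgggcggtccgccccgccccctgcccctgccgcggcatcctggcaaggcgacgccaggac
Nfkbie, chr17:45555450-45555699, plus strand: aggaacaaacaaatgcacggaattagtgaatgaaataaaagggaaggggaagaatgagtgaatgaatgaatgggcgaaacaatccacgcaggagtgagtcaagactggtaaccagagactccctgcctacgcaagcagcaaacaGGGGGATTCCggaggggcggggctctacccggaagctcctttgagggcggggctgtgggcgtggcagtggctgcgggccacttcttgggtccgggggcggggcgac
The Nfkbia match begins 29 bases before the start and is read on the opposite strand. The Rel window holds 3 overlapping matches on both strands, which form 1 site beginning 92 bases before the start. The Nfkbie match lies on the gene's own strand, 106 bases before the start.

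Library totals ranged from 14928623 to 27450400 estimated counts. Levels are given as CPM, the estimated count of a gene scaled to a common library size. The deleted gene checked the labels: Cd48 was at 58.2, 46.6 and 41.6 CPM in WT libraries 1 to 3 (WT1, WT2 and WT3) and at 4.52, 5.59 and 4.40 CPM in KO libraries 1 to 3 (KO1, KO2 and KO3). None of the NF-κB members lies on chromosome 1, which carries Cd48. All 12 ILC2 markers were listed, with a summed level of 12424 to 16129 CPM in WT and 14122 to 14934 CPM in KO libraries. T cell markers (3 of 7 listed) summed to 6.56 to 8.54 CPM in WT and 4.12 to 5.25 CPM in KO, and epithelial markers (6 of 6 listed) to 26.5 to 71.2 and 9.78 to 23.0 CPM. Macrophage and monocyte markers (6 of 8 listed) summed to 54.4 to 242 CPM in WT and 14.0 to 125 CPM in KO, and dendritic markers (4 of 5 listed) to 58.4 to 67.2 and 51.7 to 58.3 CPM. Endothelial and stromal markers went the other way through Pecam1, the 1 of 6 listed, at 29.1 to 39.8 CPM in WT and 40.1 to 41.9 CPM in KO. B cell markers (2 of 5 listed) overlapped between genotypes, and NK cell, neutrophil, mast cell and eosinophil markers to at most 1.83 CPM each. The part of these other cell types in any result below was not tested. In bulk RNA, fewer cells of a type and less RNA per cell cannot be told apart.

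One library, WT1, stood apart, and it touches several NF-κB genes directly. Its correlation with the other 5 libraries over log2 CPM was 0.922 to 0.932, against 0.980 to 0.988 among the other 5. Its difference from WT2 and WT3 followed transcript length, with a Spearman coefficient of -0.35 across 13053 genes, a description across genes that share the libraries. Genes with a longest transcript of 6 to 8 kb had a median log2 difference of -0.72 in WT1, and genes of 1 to 2 kb one of 0.29. Among the members, WT1 differed from the mean of WT2 and WT3 by -1.32 for Rel, whose longest transcript is 7466 bases, and by -0.96 for Tnfaip3 (6199 bases). It also differed by -1.20 for Nfkbid (2039 bases), by 1.04 for Map3k8 (2569 bases) and by 0.58 for Nfkb1 (4149 bases). These genes departed from the length trend. Genes of 2000 to 3000 bases had a median of 0.11, and genes of 4000 to 6000 bases one of -0.32. Nfkbid and Nfkb1 had the opposite sign to their length class, and Map3k8 was far above its own. Each comparison is therefore given with all 6 libraries and again without WT1.

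**Figure D1:**
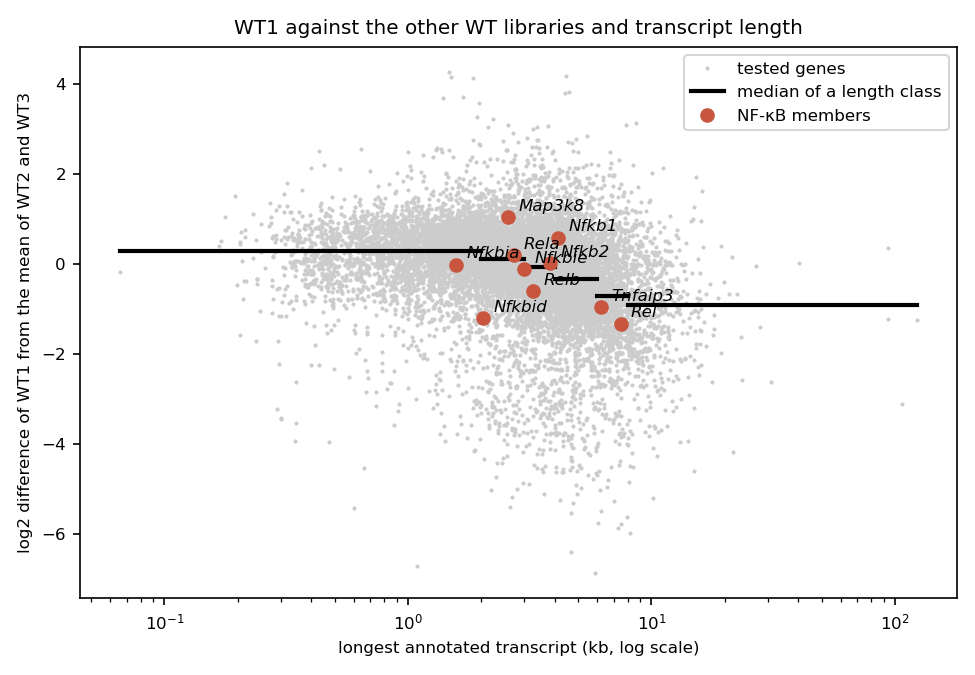
Log2 difference of WT1 from the mean of WT2 and WT3 (y axis) against the longest annotated transcript of each gene in kb (x axis, log scale). Grey points are tested genes, black bars the medians of length classes and red points the 10 NF-κB members. Rel, Nfkbid and Tnfaip3 lie lowest among the members, between -1.32 and -0.96, and Map3k8 highest at 1.04.

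With all 6 libraries no NF-κB member passed the test between Cd48 KO and WT ILC2s. In edgeR's quasi-likelihood fit, with p-values adjusted over 13317 genes by the Benjamini-Hochberg method, 0 of the 10 members had an adjusted p under 0.05, where 0.0300% of all tested genes did. At an unadjusted p under 0.05 the count was 1 of 10, Rela, lower in KO, against 6.89% of all genes in either direction and 3.95% lower in KO. None of the 10 was called by DESeq2 (0.811% of all genes called), by limma-voom (0.0300%) or by limma-voom with quality weights (0.713%). Without WT1, 1 of 10 members was called, Map3k8, higher in KO, and 1.82% of 13643 genes were called in either direction, 1.17% higher in KO. DESeq2 (3.02% of all genes called), limma-voom (1.42%) and limma-voom with quality weights (1.60%) called the same member in that set. At an unadjusted edgeR p under 0.05 there were 3 of 10, Nfkb1 and Map3k8 higher and Rela lower, against 13.7% of all genes, 8.07% higher and 5.60% lower. The median log2 fold change of KO over WT across the members was 0.04 with all 6 libraries and 0.10 without WT1, beside medians of -0.0039 and 0.00048 over all tested genes.

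**Figure D2:**
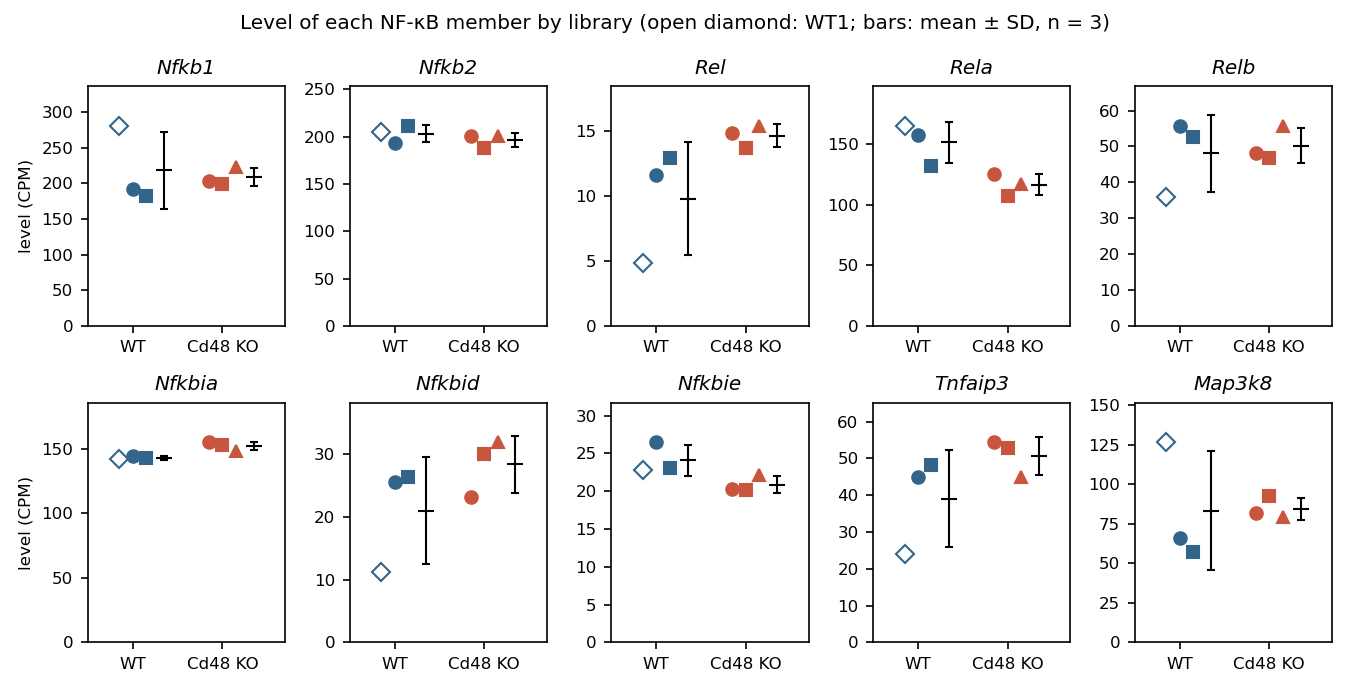
Level of each of the 10 NF-κB members in CPM (y axis) by genotype, 1 symbol per library, with WT1 as the open diamond and bars for the mean ± SD (n = 3). Rela sits lower in all 3 KO libraries than in any WT library, Nfkbia and Nfkb2 are nearly level across the 6 libraries, and WT1 is the extreme WT library for Rel, Relb, Nfkbid, Tnfaip3, Map3k8 and Nfkb1.

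Of the subunits, Rela was the one whose KO libraries lay below the WT libraries. It encodes p65, the main activating subunit of the canonical pathway, and lies at chr19:5637483-5648130 on the plus strand (mm10). Rela was at 165, 157 and 132 CPM in WT libraries 1 to 3 and at 125, 107 and 117 CPM in KO libraries 1 to 3. The highest KO library was below the lowest WT library. The means were 151 ± 17.1 CPM in WT (SD, n = 3) and 116 ± 8.92 CPM in KO (SD, n = 3). The log2 fold change was -0.38 (SE 0.13, 95% interval -0.69 to -0.07), with an unadjusted edgeR p of 0.0232 and a Benjamini-Hochberg adjusted p of 0.690. Without WT1 it was -0.31 (SE 0.09, interval -0.50 to -0.12), or a fold of 0.808 (0.708 to 0.923), with an edgeR p of 0.00432 and an adjusted p of 0.120. The libraries were also separated without WT1, and the difference passed the test in neither set. When WT2 was left out beside WT1, the log2 fold change was -0.18 (edgeR p 0.0887). From the full set, leaving out WT2, KO2 or KO3 took the unadjusted edgeR p to 0.0715, 0.0963 or 0.0682.

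Rel differed in the other direction and rests on few reads. It encodes c-Rel, the lymphoid-enriched activating subunit, at chr11:23736847-23770970 on the minus strand. Rel was at 4.82, 11.6 and 12.9 CPM in WT libraries 1 to 3 and at 14.8, 13.6 and 15.4 CPM in KO libraries 1 to 3. All 3 KO libraries were above all 3 WT libraries, and WT1, with 69 counts, was far below the other WT libraries. Its log2 fold change was 0.57 (SE 0.35, interval -0.27 to 1.41, edgeR adjusted p 0.690) with all 6 libraries. It was 0.25 (SE 0.16, interval -0.09 to 0.59, adjusted p 0.532) without WT1, at means of 12.2 ± 0.898 CPM in WT (SD, n = 2) and 14.6 ± 0.874 CPM in KO (SD, n = 3). With a trend on transcript length in the offsets, the value for all 6 libraries was 0.40.

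For Nfkb1, the gene of p105 and p50, the order of the genotypes depended on WT1. Located at chr3:135584655-135691547 on the minus strand, it was at 280.2, 191 and 182 CPM in WT libraries 1 to 3 and at 203, 199 and 223 CPM in KO libraries 1 to 3. WT1 was the highest of all 6 libraries, while WT2 and WT3 were below every KO library. For Nfkb1 the log2 fold change was -0.07 (SE 0.18, interval -0.50 to 0.37, edgeR adjusted p 0.892) with all 6 libraries and 0.16 (SE 0.07, interval 0.01 to 0.31, unadjusted p 0.0379, adjusted p 0.324) without WT1.

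Both non-canonical subunit genes showed overlapping genotypes. Nfkb2 encodes p100, which is both an inhibitor and the precursor of p52, and lies at chr19:46304320-46312385 on the plus strand. It was at 205, 194 and 211 CPM in WT libraries 1 to 3 and at 201, 188 and 201 CPM in KO libraries 1 to 3. Nfkb2 had a log2 fold change of -0.05 (SE 0.10, interval -0.29 to 0.19, edgeR adjusted p 0.857) with all 6 libraries and -0.04 (interval -0.19 to 0.11, adjusted p 0.854) without WT1. Part of the gene overlaps Psd and AC114539.1 on the opposite strand, and without strand in the counting reads of these genes cannot be told apart. Relb, the partner of p52 at chr7:19606217-19629438 on the minus strand, was at 35.8, 55.7 and 52.7 CPM in WT and 48.1, 46.7 and 55.7 CPM in KO libraries, in the same order. WT1 was the lowest Relb library, and the genotypes overlapped with and without it. Relb had a log2 fold change of 0.06 (interval -0.40 to 0.52, edgeR adjusted p 0.904) with all 6 libraries and -0.11 (interval -0.33 to 0.12, adjusted p 0.728) without WT1.

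Among the inhibitors none was called in either set, and the 2 classical cytoplasmic IκB genes lay in opposite directions. Nfkbia encodes IκBα, the fast-resynthesised inhibitor that ends canonical signalling, at chr12:55489410-55492647 on the minus strand. It was at 142, 145 and 142 CPM in WT libraries 1 to 3 and at 155, 153 and 148 CPM in KO libraries 1 to 3. Every KO library was above every WT library by a small margin, with means of 143 ± 1.47 and 152 ± 3.32 CPM (SD, n = 3 each). The log2 fold change of Nfkbia was 0.09 (SE 0.10, interval -0.14 to 0.32, edgeR adjusted p 0.741) with all 6 libraries and 0.09 (SE 0.07, interval -0.06 to 0.23, adjusted p 0.639) without WT1. The ratio of its highest to its lowest library was 1.09, and 0.772% of 8676 genes with at least 10 CPM had a smaller one.

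Nfkbie encodes IκBε, a slower feedback inhibitor, at chr17:45555703-45563169 on the plus strand. It was at 22.8, 26.4 and 23.0 CPM in WT libraries 1 to 3 and at 20.3, 20.1 and 22.1 CPM in KO libraries 1 to 3. All KO libraries were below all WT libraries, with 22.1 and 22.8 CPM as the nearest pair. Nfkbie had a log2 fold change of -0.21 (SE 0.14, interval -0.54 to 0.12, edgeR adjusted p 0.693) with all 6 libraries and -0.24 (SE 0.13, interval -0.52 to 0.04, adjusted p 0.462) without WT1.

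Nfkbid and Tnfaip3 shared a pattern in which the lowest library was WT1. Nfkbid encodes IκBNS, a nuclear IκB protein, at chr7:30421732-30428746 on the plus strand, and was at 11.2, 25.5 and 26.3 CPM in WT libraries 1 to 3 and 23.1, 30.1 and 31.8 CPM in KO libraries 1 to 3. KO1 was below WT2 and WT3, so the genotypes overlapped. Its log2 fold change was 0.43 (SE 0.33, interval -0.36 to 1.22, edgeR adjusted p 0.701) with all 6 libraries and 0.13 (SE 0.14, interval -0.18 to 0.45, adjusted p 0.768) without WT1. Tnfaip3 encodes A20, the ubiquitin-editing enzyme that shuts off signalling upstream of the IκB kinases, at chr10:19000910-19015657 on the minus strand. It was at 24.0, 45.1 and 48.3 CPM in WT libraries 1 to 3 and at 54.3, 52.9 and 44.9 CPM in KO libraries 1 to 3. KO3 was below both WT2 and WT3. The log2 fold change of Tnfaip3 was 0.37 (SE 0.27, interval -0.27 to 1.01, edgeR adjusted p 0.696) with all 6 libraries, 0.21 with the length trend in the offsets, and 0.12 (SE 0.11, interval -0.11 to 0.35, adjusted p 0.702) without WT1.

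Map3k8 was the one member called, and only in the set without WT1. It encodes TPL-2, a kinase held inactive by p105, the Nfkb1 product, and released to activate the ERK pathway. Map3k8 was at 126, 65.8 and 57.4 CPM in WT libraries 1 to 3 and at 81.8, 92.3 and 79.4 CPM in KO libraries 1 to 3. WT1 was the highest library of all 6, and the other 2 WT libraries were the lowest. With all 6 libraries the log2 fold change was 0.02 (SE 0.30, interval -0.69 to 0.74, edgeR adjusted p 0.977). Without WT1 it was 0.46 (SE 0.10, interval 0.25 to 0.67, edgeR adjusted p 0.0326), a fold of 1.38 (1.19 to 1.60), from 61.6 ± 5.89 CPM in WT (SD, n = 2) to 84.5 ± 6.89 CPM in KO (SD, n = 3). Among 15 alternatives of the set without WT1, the replicate block and leaving out KO1 both compare WT2 and WT3 with KO2 and KO3 only. The call held in 10 of the 15. It was lost when WT2 (adjusted p 0.0574), WT3 (0.217), KO2 (0.169) or KO3 (0.0929) was also left out, and when the edgeR fit was not robust (0.0612). The edgeR call rests on leaving out WT1, the library in which the gene was highest. Keeping all 6 libraries, limma-voom with quality weights per sample gave 0.43 (unadjusted p 0.00475, adjusted p 0.133).

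**Figure D3:**
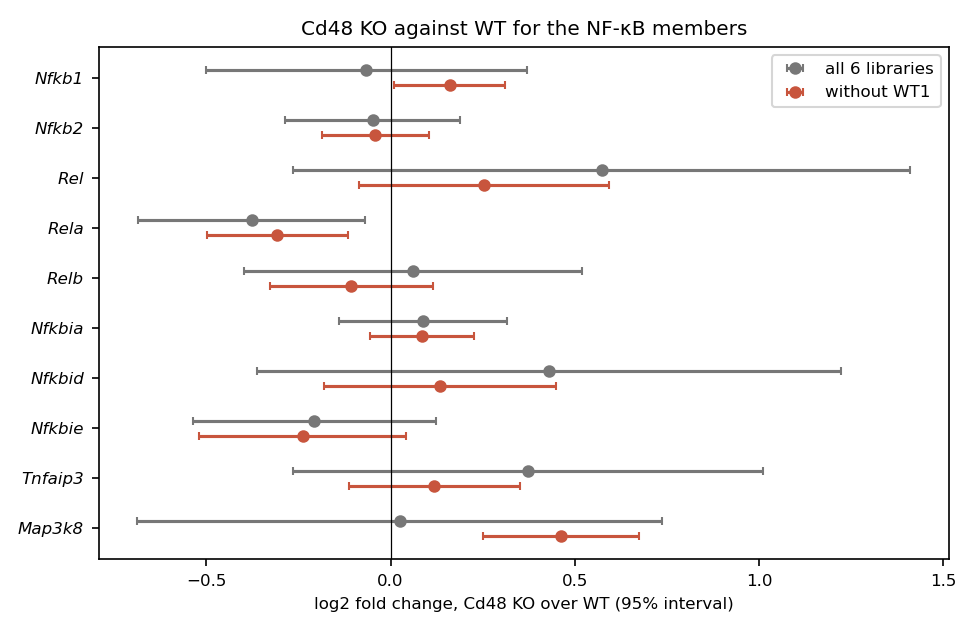
Log2 fold change of Cd48 KO over WT (x axis) for each of the 10 NF-κB members, with 95% intervals from edgeR, for all 6 libraries (grey) and without WT1 (red). The intervals of Rela lie below 0 in both sets, and that of Map3k8 runs from -0.69 to 0.74 with all 6 libraries and from 0.25 to 0.67 without WT1.

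Counts of separated genotypes put these values beside the rest of the transcriptome. With all 6 libraries the WT and KO ranges did not overlap for 4 of 10 members (Rela and Nfkbie lower, Rel and Nfkbia higher in KO), against 19.3% of all tested genes. Without WT1 they did not overlap for 6 of 10, with Nfkb1 and Map3k8 added as higher, against 30.0%. The percentages are for 9.11% of genes lower and 10.2% higher with all 6 libraries, and 14.3% lower and 15.8% higher without WT1. With 10 members these counts are a description of the list.

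Library-to-library spread set the members apart from each other. Nfkbia and Nfkb2 had ratios of the highest to the lowest library of 1.09 and 1.12, where the median gene had 1.56. Rel (3.19), Nfkbid (2.85), Tnfaip3 (2.27) and Map3k8 (2.20) were among the more variable genes, with 92.7%, 90.2%, 82.3% and 80.5% of genes below them. Without WT1 the median gene had a ratio of 1.22. The ratio of Rel was then 1.32, that of Tnfaip3 1.21 and that of Nfkbid 1.38, with 71.0%, 46.6% and 77.5% of genes below them. Map3k8 (1.61) and Rela (1.46) then had the widest ranges of the 10, with 91.9% and 85.4% of genes below them.

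Levels per transcript length, scaled to the same total in every library, allow the members to be ordered. By the longest transcript, Nfkbia was highest at 209.9 ± 18.3 in WT and 235 ± 7.75 in KO (SD, n = 3 each here and below). Nfkb2 (122 ± 11.4 and 124 ± 5.47), Nfkb1 (120.0 ± 18.9 and 122 ± 6.62) and Rela (128 ± 10.1 and 104 ± 9.05) followed and overlapped. Map3k8 came next at 73.1 ± 26.3 and 80.1 ± 6.43, overlapping Rela in range though below it in each library. Relb (34.4 ± 9.92 and 37.3 ± 3.35), Nfkbid (24.4 ± 11.2 and 33.8 ± 5.10), Nfkbie (18.6 ± 2.61 and 16.9 ± 0.795) and Tnfaip3 (14.9 ± 5.92 and 19.9 ± 2.20) formed a lower group in which each neighbour overlapped the next. Rel was last at 3.10 ± 1.53 and 4.77 ± 0.292, below Tnfaip3 in all 6 libraries. Only 5 of the 10 places were kept with the median protein-coding transcript and 1 with the shortest, which was that of Rel, so the order of the others depends on the length used.

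Within each library Rela was a smaller share of the 5 subunit transcripts in KO. Rela made up 31.4%, 33.5% and 29.4% of the summed subunit level per length in WT libraries 1 to 3, and 28.2%, 25.9% and 25.6% in KO libraries 1 to 3. Every KO share was below every WT share. The shares use the longest transcript, were not computed with other lengths and were not tested, and Rela itself was called in neither set. Rel made up 0.759% ± 0.375 in WT and 1.21% ± 0.0132 in KO (SD, n = 3), with WT1 at 0.334%. Nfkb1 (29.4% ± 4.82 and 31.1% ± 1.14), Nfkb2 (30.0% ± 2.91 and 31.7% ± 0.481) and Relb (8.42% ± 2.38 and 9.49% ± 0.593) overlapped between genotypes.

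A set of 6 ratios between members, chosen with the values known, removes differences in library scaling. Nfkbia over Rela was 1.48, 1.58 and 1.86 in WT libraries 1 to 3 and 2.13, 2.45 and 2.19 in KO libraries 1 to 3. All KO values were above all WT values, and the KO mean was 1.37 times the WT mean. The exact two-sided permutation p was 0.1, the smallest that 3 against 3 allows, and 0.2 after Benjamini-Hochberg adjustment over the 6 ratios. Because the ratios were chosen with the values known, these permutation p-values describe the separation and give it no independent support. Rel over Rela was 0.0106, 0.0269 and 0.0355 in WT and 0.0431, 0.0462 and 0.0479 in KO libraries, also separated (exact permutation p 0.1, adjusted 0.2). Nfkbia and Rel were each higher, and Rela lower, in every KO library than in any WT library. Nfkbia over Rela and Rel over Rela were therefore bound to separate, and their permutation p-values add nothing to the single-gene values. Rela over Nfkb2 was 1.14, 1.15 and 0.886 in WT and 0.884, 0.810 and 0.822 in KO (exact permutation p 0.1, adjusted 0.2), where WT3 and KO1 nearly touched. These 3 ratios share Rela and stayed separated without WT1. Rela over Nfkb1 (exact permutation p 0.2, adjusted 0.3), Map3k8 over Nfkb1 (p 0.4, adjusted 0.48) and Relb over Nfkb2 (p 0.9, adjusted 0.9) overlapped with all 6 libraries. Without WT1, Rela over Nfkb1 was lower and Map3k8 over Nfkb1 higher in every KO library than in WT2 or WT3, and Relb over Nfkb2 overlapped. The 5 of 6 ratios then separated share members and are not independent. Of single tested genes, 30.0% were separated without WT1, which is an unlike measure, and no such share was computed for ratios between genes.

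**Figure D4:**
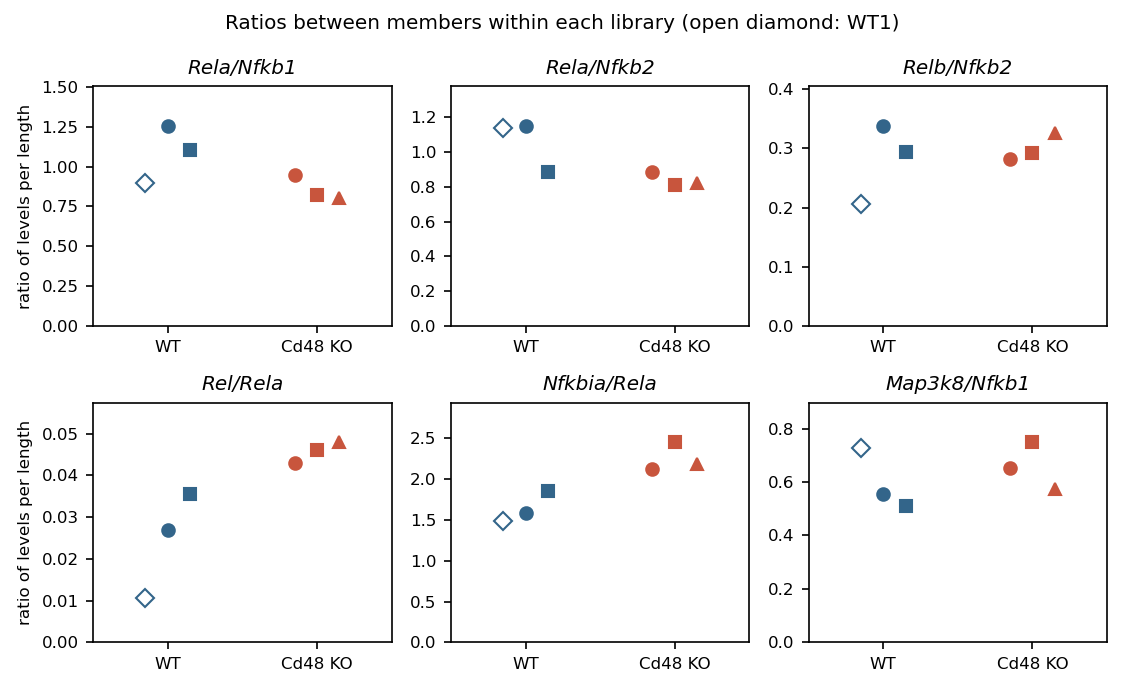
Ratios of levels per transcript length between pairs of NF-κB members (y axis), computed within each library, by genotype, with WT1 as the open diamond. Nfkbia over Rela and Rel over Rela are higher, and Rela over Nfkb2 lower, in every KO library than in any WT library, while the ratios in the other panels overlap with WT1 included.

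The other genes of the pathway were read from 4 lists named by role. The lists were chosen with earlier results of these data known, so the counts below describe the lists and test nothing about them. With all 6 libraries no gene of any list was called by edgeR, while DESeq2 called 2 of the listed genes (Ltb and Tnfrsf9) and limma-voom with sample quality weights 3 (those and Il2ra). At an unadjusted p under 0.05, edgeR gave 0 of 20 receptor, adaptor and ubiquitin ligase genes, 2 of 12 kinase genes (higher), 3 of 16 other inhibitor and deubiquitinase genes (lower) and 8 of 34 target genes (3 higher, 5 lower), against 6.89% of all tested genes. Without WT1, edgeR called 0 of 20, 0 of 12, 0 of 16 and 3 of 35 genes of these lists, against 1.82% of all tested genes. At an unadjusted p under 0.05 the lists then gave 2 receptor, adaptor and ligase genes and 2 kinase genes, all higher, 4 other inhibitor genes (2 higher, 2 lower) and 11 target genes (5 higher, 6 lower), against 13.7% of all genes. The 4 list medians of the log2 fold change were 0.15, 0.12, -0.018 and 0.0078 with all 6 libraries, against -0.0039 over all genes. Without WT1 they were -0.0060, 0.045, -0.048 and -0.0090, against 0.00048 over all genes.

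**Figure D5:**
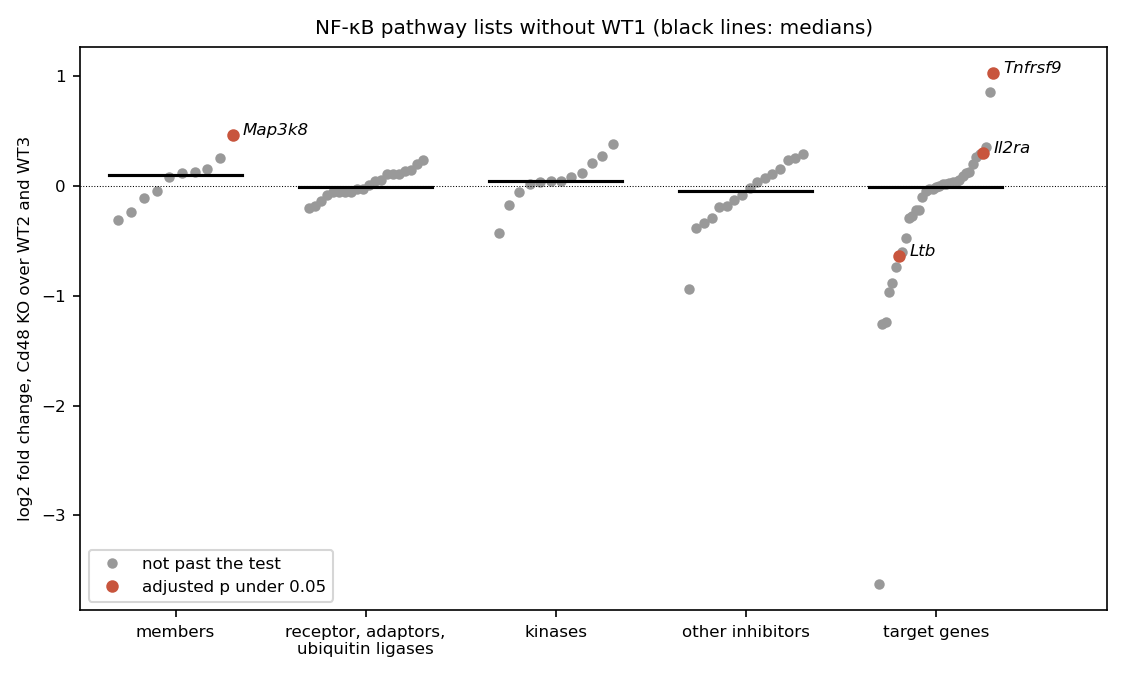
Log2 fold change of Cd48 KO over WT2 and WT3 (y axis) for the NF-κB members and the genes of 4 pathway lists (x axis), ordered by value within a list, with black lines at the medians and red points for an edgeR adjusted p under 0.05. The called genes are Map3k8 among the members and Tnfrsf9, Il2ra and Ltb among the targets, 2 of them higher and 1 lower.

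Upstream of NF-κB, Il1rl1, the IL-33 receptor chain ST2, was at 611, 1192 and 1276 CPM in WT libraries 1 to 3 and at 1337, 1317 and 1347 CPM in KO libraries 1 to 3. Its log2 fold change was 0.38 (edgeR adjusted p 0.693) with all 6 libraries and 0.11 (SE 0.05, adjusted p 0.329) without WT1, the low library. Rbck1, part of the linear ubiquitin ligase, and Traf1, a receptor adaptor, had 0.14 and 0.15 with all 6 libraries and 0.01 and -0.02 without WT1, none called. Among the kinases, Chuk (IKKα) was at 70.9, 107 and 116 CPM in WT and 133, 135 and 136 CPM in KO libraries, with every KO library higher. Its log2 fold change was 0.46 (edgeR adjusted p 0.690) with all 6 libraries and 0.28 (SE 0.07, adjusted p 0.0874) without WT1, where DESeq2 called it (0.27, adjusted p 0.0316). Ikbkb (IKKβ) had -0.04 and 0.04, and Tbk1, an IKK-related kinase, 0.06 and 0.05, in the same order. Of the other inhibitors, Tax1bp1, an A20 adaptor, had -0.13 and 0.03, Nfkbib (IκBβ) -0.11 and -0.02, and Bcl3, a nuclear IκB protein, -0.20 and -0.18, none called. Nfkbib, Bcl3, Ikbkb and Tax1bp1 overlap other annotated genes, as do Nfkb1 (Gm43430), Il2ra (Gm37881) and Csf2 (Gm12223), so their counts may hold reads of those.

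The 3 called target genes did not move one way. Tnfrsf9, the costimulatory receptor 4-1BB, was at 112, 234 and 177 CPM in WT libraries 1 to 3 and at 401, 469 and 387 CPM in KO libraries 1 to 3. It was higher in KO with a log2 fold change of 1.03 (SE 0.14, edgeR adjusted p 0.0321) without WT1 and had 1.26 (SE 0.26, adjusted p 0.577) with all 6 libraries. It overlaps Camta1 on the opposite strand, and leaving out KO3 as well as WT1 ended the call (adjusted p 0.0695). Il2ra, the IL-2 receptor alpha chain, was at 1625, 1564 and 1776 CPM in WT and 2025, 2066 and 2091 CPM in KO libraries, with a log2 fold change of 0.31 (SE 0.06, edgeR adjusted p 0.0200) without WT1 and 0.32 (adjusted p 0.690) with it. The Il2ra call was lost when WT2 (adjusted p 0.168), KO2 (0.103) or KO3 (0.111) was also left out. Ltb, lymphotoxin beta, was at 117, 82.0 and 81.2 CPM in WT and 52.5, 47.2 and 57.8 CPM in KO libraries. It was lower in KO, with -0.63 (SE 0.10, edgeR adjusted p 0.00602) without WT1, a call kept in all 15 alternatives, and -0.83 (SE 0.18, adjusted p 0.623) with all 6 libraries. Csf2, which encodes GM-CSF, was at 658, 615 and 557 CPM in WT and 512, 517 and 478 CPM in KO libraries and was not called by edgeR without the replicate block. The Csf2 log2 fold change was -0.28 (SE 0.11, edgeR adjusted p 0.690) with all 6 libraries and -0.22 (SE 0.06, edgeR adjusted p 0.0948) without WT1. With replicate numbers as a block and without WT1 it was -0.23 (edgeR adjusted p 0.0326), a fit in which KO1 has no partner and does not enter the genotype comparison.

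The genes whose level over the 6 libraries was most like the mean standardised level of the members were Dtx2, Rhbdd2 and Serpini1, with Pearson coefficients of 0.988, 0.987 and 0.984 among 8666 genes. These describe 6 libraries, of which WT1 is the lowest for all 3 genes and for the mean of the members. The members do not share this pattern. WT1 was the lowest library for Rel, Relb, Nfkbia, Nfkbid and Tnfaip3 but the highest for Nfkb1, Rela and Map3k8. The mean ran only from -0.32 in WT1 to 0.21 in KO3, so the coefficients do not describe likeness to each member.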

How the data were processed

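Sorted, cultured, IL-33-treated lung ILC2s gave 6 RNA-seq libraries, made from 10 pg of RNA each with an ultra-low-input cDNA kit, per the labels' protocols. The authors deposited estimated counts per gene and sample, and 60.2% of the values above 0 are whole within 0.001. STAR 2.7.8, Partek 10.0, DESeq2 and the build mm10 are named, per the submitters' processing notes. The counter and annotation, and whether strand was used, were not given in the sources used here.

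Estimated counts were rounded. Genes were filtered with edgeR's filterByExpr (minimum count 10, minimum total 15), scaled by TMM and tested for KO against WT with the robust quasi-likelihood test (edgeR 4.0.16, R 4.3.3), with Benjamini-Hochberg adjustment over all tested genes and a threshold of 0.05. CPM use the TMM library sizes. All 10 members are named. Of each pathway list, called genes (up to 4, by smallest adjusted p) and the 3 most abundant per length are named. The members and lists were chosen with earlier results of these data known. Lengths and coordinates come from GENCODE vM21 (GRCm38), to which 17022 symbols (97.6%) matched; promoter windows come from RefSeq (GRCm38.p6). Alternatives were DESeq2 1.42.0, limma 3.58.1 voom with and without sample quality weights, other scalings and filters, a fit that is not robust, length-trend offsets, a replicate block and leaving out each library. The pathway list genes were added to the alternatives after seeing the data. Totals ranged from 14928623 to 27450400 estimated counts, and the lowest member count was 69 (Rel in WT1).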

Additional observations from a re-analysis of the deposited data

How the results depend on the processing

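With all 6 libraries, the count of genes called was 4 with edgeR, 108 with DESeq2, 95 with limma-voom with sample quality weights, 0 with the replicate block and 0 to 248 when 1 library was left out, with 248 without WT1 and 0 without KO1 or KO3. Members called went from 0 to between 0 and 1 and pathway list genes called from 0 to between 0 and 3 when 1 library was left out, and the latter was 2 with DESeq2 and 3 with the quality weights. The median log2 fold change of the members, 0.04, was 0.081 with limma-voom, 0.10 with the quality weights, 0.085 with the block and 0.0099 to 0.10 when 1 library was left out.

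Without WT1, the count of genes called was 248 with edgeR, 412 with DESeq2, 157 when not robust, 570 with the block and 65 to 517 when a further library was left out (65 without KO3, 73 without KO2, 89 without WT2, 141 without WT3 and 517 without KO1). Members called went from 1 to 0 when not robust and to between 0 and 1 when a library was left out. Pathway list genes called went from 3 to 6 with DESeq2, 9 with the block and 1 to 6 when a library was left out. The median of the members, 0.10, was 0.072 with the block and 0.063 to 0.093 when a library was left out. Where 1 WT library remained, it was assumed to vary like the others. Of the 10 places in the order per length, 1 was kept with the shortest and 5 with the median transcript. The number of genes called depended on which library was left out, with 517 without KO1 and 65 without KO3 at the same number of samples. The cause of these changes was not tested.

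Signs were followed for the members and the called or most abundant pathway genes. With all 6 libraries they turned only for log2 fold changes from -0.13 (Tax1bp1) to 0.15 (Traf1), including Map3k8 at 0.02. Without WT1 they turned only for values from -0.04 (Nfkb2) to 0.04 (Ikbkb). Some values within these ranges kept their sign. With all 6 libraries the quality weights gave Nfkb1 0.13, Relb -0.11, Ikbkb 0.038 and Tax1bp1 0.010. Over the sets that leave out 1 library, the lowest and highest values were -0.18 and 0.16 for Nfkb1, -0.11 and 0.18 for Relb, -0.18 and 0.46 for Map3k8, -0.022 and 0.29 for Traf1, -0.11 and 0.041 for Ikbkb and -0.21 and 0.034 for Tax1bp1. Leaving out WT1 turned the sign of all of these except Map3k8, which was -0.12 without WT2, -0.18 without WT3 and -0.043 without KO2. In the set without WT1, the ranges over a further left-out library crossed 0 for Nfkb2 (-0.11 to 0.018), Ikbkb (-0.044 to 0.12), Nfkbib (-0.087 to 0.036), Rbck1 (-0.079 to 0.063), Traf1 (-0.077 to 0.025) and Tax1bp1 (-0.0021 to 0.073), and the replicate block gave Nfkbib 0.014. Rel, Rela, Nfkbia, Nfkbid, Nfkbie and Tnfaip3 kept their sign and their side of the threshold under every alternative run in both sets.

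The titles number the replicates 1 to 3 in both genotypes. Deviations from the group means correlated at -0.05, -0.04 and -0.01 between same-numbered samples, and no label says that a number marks a shared animal or day, so the numbers were not taken as pairs. With the block Map3k8 stayed called without WT1 (edgeR adjusted p 0.0195), and no other member was called in either set. Without WT1, KO1 is the only library numbered 1, so the block takes it out of the genotype comparison. That fit is therefore close to leaving out KO1 and is not a check on pairing. Rel in WT1, at 69 counts, is the thinnest member value.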

Other observations

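Of the genes on the 4 pathway lists, 22 of 82 tested had WT and KO ranges that did not overlap with all 6 libraries (13 higher and 9 lower in KO), against 19.3% of all tested genes. Without WT1 the count was 30 of 83 (17 higher, 13 lower), against 30.0%. Genes separated as higher in KO in both sets included Tab1 and Traf6, which act between the receptor and the IκB kinases, and the inhibitor genes Nfkbiz, Cyld and Zc3h12a. Their log2 fold changes without WT1 were 0.39, 0.24, 0.24, 0.15 and 0.11, with edgeR adjusted p-values of 0.201, 0.302, 0.293, 0.382 and 0.764. The values were 0.48, 0.41, 0.56, 0.24 and 0.29 with all 6 libraries, none called. Otulin, the deubiquitinase that removes linear ubiquitin chains, was at 85.1, 37.6 and 22.3 CPM in WT libraries 1 to 3 and at 21.7, 12.5 and 12.4 CPM in KO libraries 1 to 3. Every KO library was below every WT library, but the WT libraries differed from each other more than WT3 did from KO1. Its log2 fold change was -1.63 (SE 0.51, edgeR adjusted p 0.690) with all 6 libraries and -0.93 (SE 0.34, edgeR adjusted p 0.317) without WT1, where DESeq2 gave an adjusted p of 0.0300. Pdlim2, a ligase for nuclear RelA, was at 88.6, 87.6 and 85.1 CPM in WT and 69.1, 72.5 and 70.05 CPM in KO libraries. Its log2 fold change was -0.29 (SE 0.08, edgeR adjusted p 0.103) without WT1 and -0.30 (SE 0.10, adjusted p 0.690) with all 6 libraries, and DESeq2 without WT1 gave an adjusted p of 0.0399. Otulin overlaps Ank and Mir7117 on the opposite strand. The lists were chosen with earlier results of these data known, and the 7 genes named here after their values were seen.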
